A study of Homo sapiens with 4 samples.

Results

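The genes described here are the ligands and receptors of axon guidance: 71 genes annotated as protein_coding, out of 19404 protein_coding genes and 57820 genes of all types in the deposited tables. The rule that picks them uses gene names and no measured value, though it was set with earlier results of these data known. It takes the semaphorins (SEMA), plexins (PLXN), ROBO receptors, netrin receptors UNC5A to UNC5D, netrins (NTN and NTNG), EPH receptors (EPHA and EPHB) and ephrins (EFNA and EFNB) with a numbered or lettered name, together with SLIT1 to SLIT3, DCC, NRP1 and NRP2. Of the 71, 37 are ligands and 34 are receptors. RNA was sequenced from SY5Y, a human neuroblastoma cell line that the labels call MYCN wild type, in 2 libraries of cells given DMSO, the solvent, and 2 libraries of cells given SGSS05-NS. SGSS05-NS, the name in the labels, was taken to be the compound that the study calls SGSS05-NS3 and describes as a covalent inhibitor of the histone methyltransferase SETD8, and the cells were collected 12 h after treatment. The study's discussion also uses the name SGSS05-NS for a compound of the same patented series, and states that the series inhibits other methyltransferases too. The labels give a dose of 3 µM, as does the study's figure legend for the expression data of these cells, whereas its methods give a lower dose. All 4 libraries came from a single cell line, and the comparison asked which transcripts differed between treated and solvent cells.

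Axon guidance molecules steer growing axons and migrating cells by attraction and repulsion. Semaphorins signal through plexins, the secreted class 3 semaphorins usually with a neuropilin as the ligand-binding partner. Slits signal through ROBO receptors, netrins through DCC and UNC5 receptors, and membrane-bound ephrins through EPH receptor tyrosine kinases. Neuroblastoma arises from the sympathoadrenal lineage of the neural crest, whose migration in the embryo is guided by several of these cues.

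The libraries held between 21463105 and 25350204 fragments assigned to genes, and levels are given as CPM, the counts scaled to a common library total with TMM factors. The guidance genes together took 0.271% and 0.279% of these fragments with DMSO and 0.187% and 0.157% with SGSS05-NS. The share of all fragments that fell in no annotated exon on the counted strand was 12.4% and 12.3% with DMSO and 16.1% and 15.3% with SGSS05-NS. The part of this difference in the results below was not tested. Of 12 markers of adrenergic neuroblastoma cells, 11 were above 1 CPM in all 4 libraries, and TH had at most 2 fragments in any. The summed level of these markers was 4317 and 4658 CPM with DMSO against 2750 and 2672 CPM with SGSS05-NS. Of the 12, 7 were called lower, against 8.14% of all genes tested. Not called were CHGB and NEFM, with log2 fold changes of 0.11 and 0.38, and ISL1 and DBH, with -0.61 and -0.26. The part of these cells' markers in the results was likewise not tested. Markers of leukocytes, endothelium, Schwann cells and epithelium summed to at most 3.78 CPM in any library for each list, while 10 markers of mesenchymal-type cells summed to 286 and 313 CPM with DMSO and to 238 and 237 CPM with SGSS05-NS. TWIST1, FN1 and THY1 made most of that sum, and PRRX1 and DCN had 0 fragments. TWIST1 was called lower (151 and 168 against 99.7 and 86.9 CPM). Not called were COL1A1, SNAI2 and THY1, with log2 fold changes of 0.41, 0.30 and 0.22. COL1A2, COL3A1, LUM and FN1, at -2.24, -0.32, -0.23 and -0.15, were not called either. In RNA from whole cultures, fewer cells of a type and less RNA per cell cannot be told apart.

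Of the 71 genes, 58 had enough counts to be tested, and at an adjusted p-value under 0.001 (edgeR's quasi-likelihood test, Benjamini-Hochberg adjusted across 16468 genes) 4 were higher and 16 were lower with SGSS05-NS. The 4 that rose were 6.9% of the tested guidance genes, against 6.37% of all genes tested. The 16 that fell were 27.6%, against 8.14% of all genes tested. The median log2 fold change was -0.22 over the guidance genes and 0.01 over all genes. The genes that rose were EPHA2, EFNB1, EFNA1 and PLXNA3. Those that fell were SEMA5A, UNC5C, PLXNA4, ROBO2, UNC5D, SLIT3, NRP2, ROBO1, NRP1, SEMA3A, EFNA5, PLXNA2, SEMA6D, EPHB2, UNC5B and UNC5A. The genes that rose spanned 7.02 to 31.7 kb of the genome from first to last exon, and those that fell spanned 70.4 to 1743 kb.

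**Figure D1:**
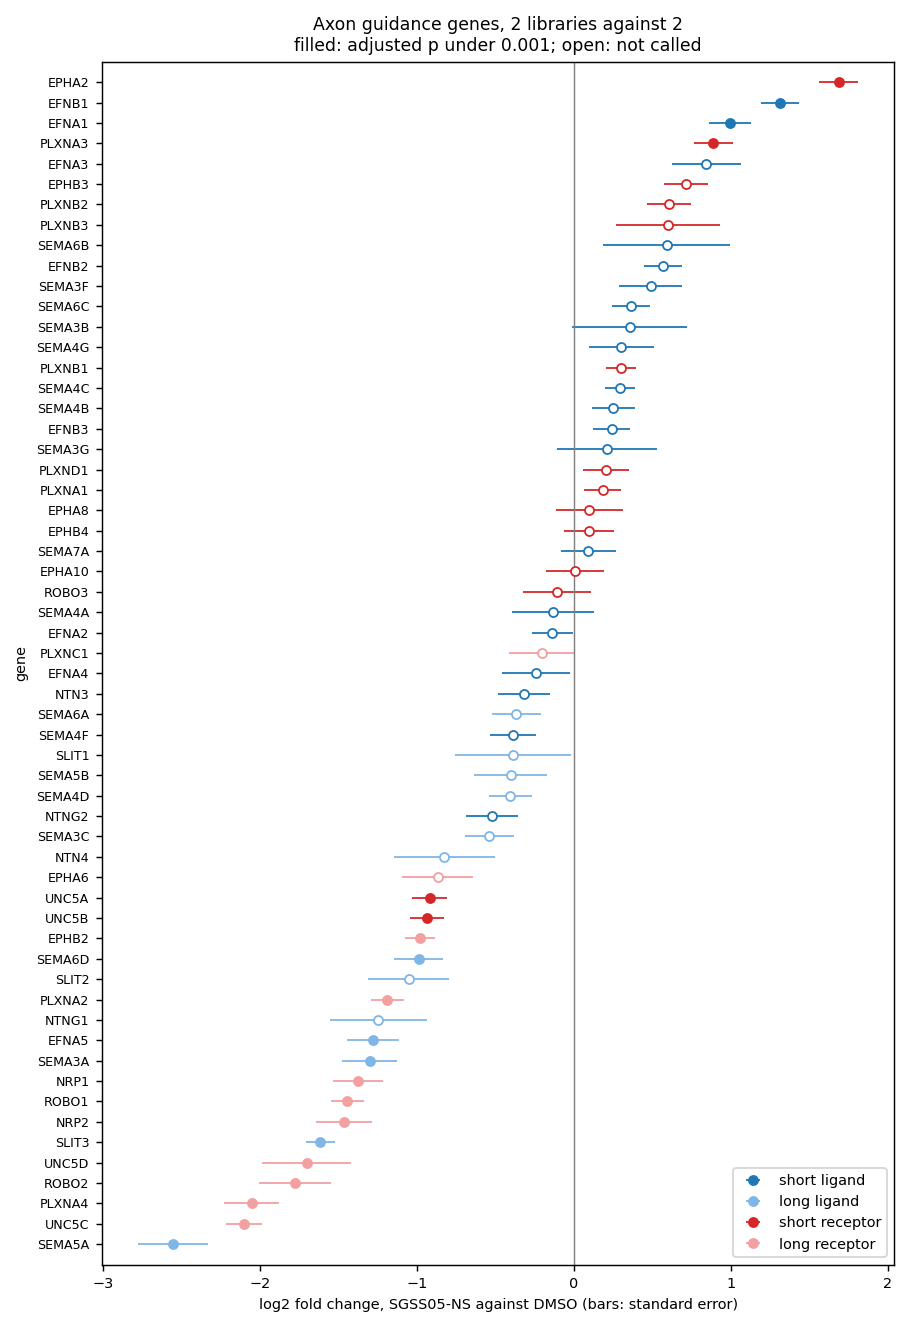
Log2 fold change of SGSS05-NS against DMSO (horizontal axis) for the 58 tested axon guidance genes (vertical axis, sorted by fold change), with bars for the standard error, filled symbols for adjusted p under 0.001 and colours for 4 classes of ligands and receptors split at a genomic span of 100 kb. The values run from -2.55 for SEMA5A to 1.69 for EPHA2, and all 4 filled symbols to the right of 0 belong to short genes.

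The 300 bases around the annotated start of 4 of these genes are shown because they had the largest log2 fold change among the ligands and receptors called in each direction: EFNB1 and EPHA2 higher, SEMA5A and UNC5C lower. The sequences are those of RefSeq on GRCh38.p14, from 250 bases before to 50 bases after the start, on the strand of the gene, with each CG dinucleotide in capitals. EFNB1 lies at chrX:68828771-68829070 on the plus strand, and EPHA2 at chr1:16156020-16156319, SEMA5A at chr5:9546026-9546325 and UNC5C at chr4:95548924-95549223 on the minus strand.
EFNB1: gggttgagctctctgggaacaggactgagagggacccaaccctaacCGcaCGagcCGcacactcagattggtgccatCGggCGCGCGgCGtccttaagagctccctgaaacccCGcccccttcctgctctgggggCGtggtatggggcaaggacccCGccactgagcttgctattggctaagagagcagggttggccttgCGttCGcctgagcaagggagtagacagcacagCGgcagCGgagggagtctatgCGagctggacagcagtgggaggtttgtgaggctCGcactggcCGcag
EPHA2: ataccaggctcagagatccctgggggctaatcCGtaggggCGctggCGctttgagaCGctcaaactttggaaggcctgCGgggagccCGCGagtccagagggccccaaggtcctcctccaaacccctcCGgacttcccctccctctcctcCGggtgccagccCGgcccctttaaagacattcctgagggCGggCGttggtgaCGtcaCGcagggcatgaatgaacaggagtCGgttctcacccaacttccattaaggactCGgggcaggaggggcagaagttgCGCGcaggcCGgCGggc
SEMA5A: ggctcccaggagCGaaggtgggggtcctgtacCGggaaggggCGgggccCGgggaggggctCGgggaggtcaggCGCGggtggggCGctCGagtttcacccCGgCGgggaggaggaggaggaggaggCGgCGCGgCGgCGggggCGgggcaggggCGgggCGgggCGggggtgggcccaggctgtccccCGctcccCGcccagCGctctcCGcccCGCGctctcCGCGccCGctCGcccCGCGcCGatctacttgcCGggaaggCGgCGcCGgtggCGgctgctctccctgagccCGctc
UNC5C: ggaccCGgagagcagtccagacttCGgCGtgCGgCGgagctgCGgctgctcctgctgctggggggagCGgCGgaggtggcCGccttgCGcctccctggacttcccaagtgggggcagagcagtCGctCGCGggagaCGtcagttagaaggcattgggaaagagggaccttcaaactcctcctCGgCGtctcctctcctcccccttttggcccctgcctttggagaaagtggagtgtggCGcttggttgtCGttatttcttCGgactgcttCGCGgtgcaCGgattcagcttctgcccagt
The windows of EFNB1, EPHA2 and UNC5C were alike in base composition, with a GC content of 63.7%, 64.3% and 63.7% and 18, 20 and 22 CG dinucleotides. SEMA5A stood apart with 81% GC and 39 CG dinucleotides. Of the 71 genes, 60 had such a window, and their median of 21 CG dinucleotides compares with 14 over 35116 windows of all genes. The median was 24 in the 4 genes that rose, 29.5 in the 12 genes with a window that fell, and 24 in the 32 tested genes with a window that were not called. On both strands, the AP-1 motif TGANTCA occurred in 1 of the 60 windows (1.67%, PLXNC1) and in 7.71% of all windows, and the heat shock element GAANNTTC occurred in 6 (10%) and in 6.77%. None of the windows of the called genes held these letters for either motif, which describes this stretch alone.

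Ephrins are ligands anchored to the membrane, by a lipid link in the A class and by a transmembrane stretch in the B class, so that they signal between touching cells. EFNB1 (chromosome X of GRCh37 from 68048864 to 68062003), which binds EPHB receptors, was at 10.03 and 10.1 CPM with DMSO and at 25.4 and 24.6 CPM with SGSS05-NS. It was higher in both treated libraries, with a log2 fold change of 1.31 (SE 0.12, edgeR adjusted p = 7.4e-06). EFNA1, an A-class ephrin that binds EPHA2 among others, was at 12.8 and 10.5 CPM with DMSO and at 23.8 and 22.8 CPM with SGSS05-NS, so that the groups did not overlap (log2 fold change 0.99, SE 0.13, edgeR adjusted p = 0.00011). EFNA5, another A-class ephrin, went the other way: 26.4 and 30.6 CPM with DMSO against 13.996 and 9.51 CPM with SGSS05-NS, with both treated libraries below both controls (log2 fold change -1.28, SE 0.16, edgeR adjusted p = 8.2e-05). EFNA1 spans 7.02 kb and EFNA5 294 kb. EFNB3, whose level per kb of exon was among the highest of the short ligands, was at 22.0 and 25.6 CPM with DMSO and 27.5 and 28.8 CPM with SGSS05-NS and was not called (log2 fold change 0.24, edgeR adjusted p = 0.11). The log2 fold changes of the other ephrins, none of them called, were 0.84 for EFNA3, 0.57 for EFNB2, -0.14 for EFNA2 and -0.24 for EFNA4. EFNA3 and EFNA4 share exons with the readthrough gene EFNA4-EFNA3, which had 0 fragments, and fragments in shared exons are not assigned to either gene.

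EPHA2 (chromosome 1 of GRCh37 from 16450832 to 16482564), a receptor for A-class ephrins, had the largest rise of the guidance genes. Its level was 24.6 and 19.2 CPM with DMSO and 74.6 and 66.6 CPM with SGSS05-NS. The treated libraries were 3.22-fold higher (log2 fold change 1.69, SE 0.13, edgeR adjusted p = 1.3e-06). EPHB2, a receptor for B-class ephrins, fell from 77.7 and 80.7 CPM to 39.6 and 40.7 CPM, with little spread within either group (log2 fold change -0.98, SE 0.09, edgeR adjusted p = 8.9e-06). The other tested EPH receptors were not called, with log2 fold changes of 0.71 for EPHB3, 0.10 for EPHB4, 0.10 for EPHA8, 0.01 for EPHA10 and -0.87 for EPHA6. EPHA6 shares exonic bases with an unnamed gene on the same strand that had 28 and 41 fragments with DMSO and 2 and 8 with SGSS05-NS, so its value is less certain. Summed over each family, EPHA receptors went from 42.9 ± 3.11 (SD, n = 2) to 86.2 ± 2.05 CPM, EPHB receptors from 109 ± 2.78 to 80.3 ± 5.43 CPM, A-class ephrins from 63.3 ± 0.166 to 57.8 ± 6.63 CPM and B-class ephrins from 62.2 ± 7.21 to 94.96 ± 0.893 CPM. EPHA2 alone made most of the EPHA sum in the treated libraries.

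**Figure D2:**
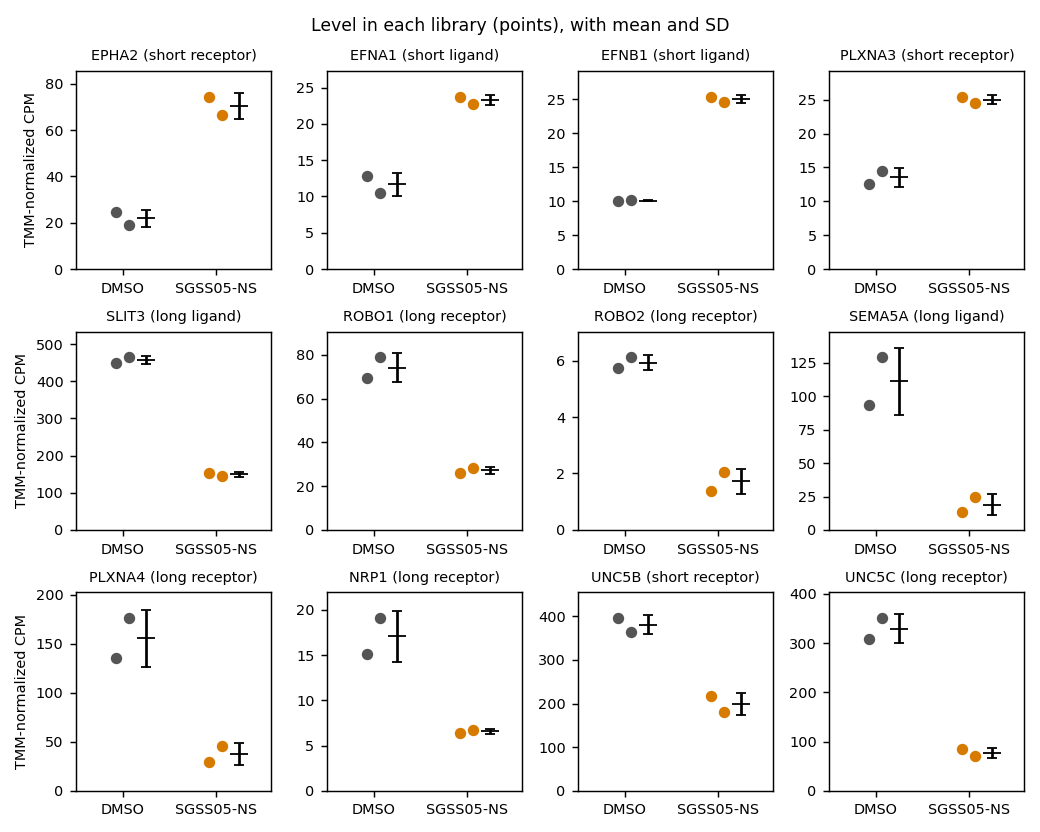
TMM-normalized CPM (vertical axes, each from 0) of 12 axon guidance genes in the DMSO and SGSS05-NS libraries (horizontal axes), with a point for each library and the mean and SD of 2 libraries beside the points. EPHA2, EFNA1, EFNB1 and PLXNA3 lie higher in both treated libraries, and the other 8 lie lower. All 12 were picked from the called genes, so the separation of their groups follows from that choice.

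Semaphorins are a large family of secreted and membrane-bound ligands, many of them repulsive. Of 18 tested, 3 fell and 0 rose by edgeR's quasi-likelihood test, by its likelihood ratio test, by DESeq2 and by limma voom. The 3 are 16.7% of the semaphorins tested, against 8.14% of all genes tested that were lower and 6.37% that were higher. At an unadjusted p under 0.05 the quasi-likelihood test put 3 semaphorins higher and 7 lower, and the share of all genes at that limit was not taken. SEMA5A (chromosome 5 of GRCh37 from 9035145 to 9546187), a transmembrane semaphorin with thrombospondin repeats, had the largest fall of the guidance genes. It was at 93.6 and 129 CPM with DMSO and at 13.3 and 24.5 CPM with SGSS05-NS. The libraries differed within each group, yet the treated ones kept 17.0% of the control level (log2 fold change -2.55, SE 0.22, edgeR adjusted p = 4.7e-06). SEMA3A, a secreted repellent, fell from 8.88 and 8.46 CPM to 3.69 and 3.35 CPM (log2 fold change -1.30, edgeR adjusted p = 0.00011). SEMA6D, a transmembrane ligand of A-class plexins, fell from 15.2 and 17.6 CPM to 9.32 and 7.18 CPM (log2 fold change -0.99, edgeR adjusted p = 0.00039). The SEMA6D call was lost with scaling by library size only (edgeR adjusted p = 0.0013). SEMA3C, another secreted semaphorin, was at 45.0 and 34.1 CPM with DMSO and 31.1 and 23.4 CPM with SGSS05-NS, and did not pass the threshold (log2 fold change -0.54, edgeR adjusted p = 0.013).

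SEMA4C, a transmembrane ligand of plexin B2, was at 9.08 ± 0.492 CPM per kb of exon in the DMSO libraries and SEMA5A at 9.05 ± 2.05, the semaphorins with the highest levels, which did not differ beyond their spread. Its level was 59.0 and 54.7 CPM with DMSO and 71.8 and 67.5 CPM with SGSS05-NS, and it was not called (log2 fold change 0.29, edgeR adjusted p = 0.024). Log2 fold changes above 0 that were not called were 0.59 for SEMA6B, 0.49 for SEMA3F, 0.36 for SEMA6C, 0.36 for SEMA3B, 0.30 for SEMA4G, 0.25 for SEMA4B, 0.21 for SEMA3G and 0.09 for SEMA7A. Those below 0 that were not called were -0.14 for SEMA4A, -0.37 for SEMA6A, -0.39 for SEMA4F, -0.40 for SEMA4D and -0.40 for SEMA5B. Of these, SEMA6A, SEMA4D and SEMA5B span more than 100 kb, as does SEMA3C, and SEMA4A and SEMA4F are shorter. The summed semaphorin level was 345 ± 24.5 CPM with DMSO and 236 ± 10.8 CPM with SGSS05-NS.

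Plexins are the signalling receptors of semaphorins, and neuropilins bind class 3 semaphorins and vascular endothelial growth factor. The A-class plexins moved in both directions. PLXNA3 rose from 12.6 and 14.5 CPM to 25.5 and 24.5 CPM (log2 fold change 0.89, SE 0.12, edgeR adjusted p = 0.00015). PLXNA4 (chromosome 7 of GRCh37 from 131808099 to 132333447) fell from 135 and 176 CPM to 29.7 and 45.4 CPM, to 24.1% of the control level (log2 fold change -2.05, SE 0.18, edgeR adjusted p = 4.1e-06). PLXNA2, among the most abundant long receptors per kb of exon, fell from 325 and 291 CPM to 145 and 125 CPM (log2 fold change -1.19, SE 0.11, edgeR adjusted p = 5.4e-06). The fourth member, PLXNA1, was not called, at 0.18. PLXNA3 spans 19.5 kb, PLXNA1 54.7 kb, PLXNA2 222 kb and PLXNA4 525 kb, so within these 4 paralogs the order of the fold changes was the reverse of the order of the spans.

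Both neuropilins fell. NRP1 was at 15.1 and 19.1 CPM with DMSO and at 6.39 and 6.75 CPM with SGSS05-NS (log2 fold change -1.38, SE 0.16, edgeR adjusted p = 3.5e-05), and NRP2 was at 12.1 and 10.9 CPM and at 4.73 and 3.61 CPM (log2 fold change -1.47, SE 0.18, edgeR adjusted p = 5.1e-05). For each, both treated libraries lay below both controls. PLXNB2, a receptor of class 4 semaphorins, was at 148 and 141 CPM with DMSO and at 259 and 179 CPM with SGSS05-NS. Its treated libraries were both higher but differed from each other, and it was not called (log2 fold change 0.60, SE 0.14, edgeR adjusted p = 0.0045). The remaining plexins were not called, with log2 fold changes of 0.60 for PLXNB3, 0.30 for PLXNB1, 0.20 for PLXND1 and -0.21 for PLXNC1. PLXNB3 overlaps exons of SRPK3 on the same strand, which had at most 7 fragments in a library.

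Slits are secreted ligands, known for keeping axons away from the midline, and ROBO proteins are their receptors. SLIT3 (chromosome 5 of GRCh37 from 168088745 to 168728143) was at 450 and 464 CPM with DMSO and at 154 and 145 CPM with SGSS05-NS. The replicates lay close together in both groups, and the treated libraries kept 32.7% of the control level (log2 fold change -1.61, SE 0.09, edgeR adjusted p = 2.4e-07). SLIT1 and SLIT2 were far less abundant and not called, with log2 fold changes of -0.39 and -1.05 (edgeR adjusted p = 0.41 and 0.0059). The value of SLIT1 is less certain, since it shares exonic bases with the readthrough gene ARHGAP19-SLIT1. That gene had 5 and 10 fragments with DMSO and 10 and 5 with SGSS05-NS. SLIT3 made nearly all of the summed slit level, 463 ± 11.9 CPM with DMSO and 153 ± 7.44 CPM with SGSS05-NS.

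ROBO1 (chromosome 3 of GRCh37 from 78646389 to 79817148) fell from 69.5 and 78.9 CPM to 26.1 and 28.4 CPM (log2 fold change -1.44, SE 0.11, edgeR adjusted p = 1.2e-06). ROBO2, the longest of the guidance genes at 1743 kb, fell from 5.73 and 6.11 CPM to 1.40 and 2.04 CPM (log2 fold change -1.78, SE 0.23, edgeR adjusted p = 7.9e-05). ROBO3, a divergent member of the family that spans 16.0 kb, was at 3.26 and 3.59 CPM with DMSO and at 3.56 and 2.80 CPM with SGSS05-NS, with overlapping groups (log2 fold change -0.11, edgeR adjusted p = 0.71). The ligand with the highest level of the long ligands thus fell together with both long receptors that bind slits.

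Netrins are secreted guidance cues related to laminin, and netrin-G proteins are their membrane-linked relatives with receptors of their own. The netrin ligands were low, and NTN3 and NTN4 were the 2 tested, neither called, at log2 fold changes of -0.32 and -0.83, and the whole netrin family summed to 8.77 ± 0.471 CPM with DMSO and 6.80 ± 0.833 CPM with SGSS05-NS. NTNG1 and NTNG2 had log2 fold changes of -1.25 and -0.52 and were not called (edgeR adjusted p = 0.0061 and 0.022). DCC, the receptor for attraction to netrin, had 2 and 4 fragments with DMSO and 0 and 2 with SGSS05-NS.

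The UNC5 receptors mediate repulsion by netrins, and all 4 fell. UNC5C (chromosome 4 of GRCh37 from 96083655 to 96470357) was at 309 and 350 CPM with DMSO and at 83.9 and 69.9 CPM with SGSS05-NS. Its treated libraries kept 23.3% of the control level, and it had the smallest p-value of the guidance genes (log2 fold change -2.10, SE 0.12, edgeR adjusted p = 1.5e-07). UNC5B fell from 395 and 365 CPM to 217 and 181 CPM (log2 fold change -0.94, SE 0.11, edgeR adjusted p = 3.7e-05). UNC5A fell from 32.4 and 33.4 CPM to 16.7 and 18.0 CPM (log2 fold change -0.92, SE 0.11, edgeR adjusted p = 5.3e-05). UNC5D, the least abundant of the family, fell from 2.63 and 2.65 CPM to 0.675 and 0.934 CPM (log2 fold change -1.70, SE 0.28, edgeR adjusted p = 5e-04), a call that was lost without SGSS05-NS replicate 1 (edgeR adjusted p = 0.0019) and with DESeq2 (adjusted p = 0.0013). The summed UNC5 level went from 745 ± 8.53 to 294 ± 34.4 CPM. UNC5A and UNC5B span 70.4 and 90.3 kb and were the 2 genes under 100 kb that fell, while UNC5C and UNC5D span 387 and 561 kb and had the larger changes.

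The 13 genes with too few counts for a test were mostly receptors. EPHA1, EPHA3, EPHA5, EPHB6 and ROBO4 had 0 fragments in every library, which allows up to 3 fragments per library for each, a limit that covers counting error only. The others had a highest count of 12 for SEMA3D, 5 for EPHB1 and NTN1, 4 for DCC and EPHA4, 3 for NTN5, and 1 for SEMA3E and EPHA7. SEMA3D had 10 and 12 fragments with DMSO and 4 and 3 with SGSS05-NS, so that its groups did not overlap, but it was not tested.

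The ligands and receptors were then compared by genomic span, since short ligands and long receptors lie at opposite ends of this family. A boundary of 100 kb put 21 genes among the short ligands, 16 among the long ligands, 17 among the short receptors and 17 among the long receptors. Of 20 short ligands tested, 2 rose, 0 fell, and the median log2 fold change was 0.27. Of 11 long receptors tested, 0 rose, 9 fell, and the median was -1.44. The 2 long receptors that were not called were EPHA6 and PLXNC1.

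The other 2 classes were the long ligands and the short receptors, and the parts of role and length in the differences between classes were not tested. Of 13 long ligands, 5 fell and 0 rose, with a median of -0.99, and of 14 short receptors, 2 rose and 2 fell, with a median of 0.19. The median of the short receptors was 0.039 without SGSS05-NS replicate 1 and 0.36 without SGSS05-NS replicate 2, and that of the short ligands was 0.15 without DMSO replicate 1. The medians of both short classes thus lay above 0 and those of both long classes below it. Of all 34 short genes, 25 had a log2 fold change above 0, and of all 24 long genes, none had. Among tested genes of any kind, 7606 of 13209 under 100 kb and 567 of 2833 of 100 kb or more were above 0. The 4 short genes that rose (11.8%) and the 2 that fell (5.88%) compare with 7.49% higher and 3.91% lower among the 13209 tested genes of any kind under 100 kb. The 14 long genes that fell (58.3%) compare with 27.8% of the 2833 tested genes of 100 kb or more, of which 1.48% were higher. These 2 sets are not matched in length, with median spans of 319 kb in the long guidance genes and 171 kb in the 2833. Over all genes the share called lower rose with span, from 15.2% at 100 to 200 kb to 54.2% at 400 kb or more. The medians of all genes were 0.09 under 100 kb and -0.42 from 100 kb on.

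The counts of 0 held with each tool. By edgeR's quasi-likelihood test, its likelihood ratio test, DESeq2 and limma voom, 0 of the long guidance genes were called higher, and 0 were higher at an unadjusted p under 0.05. The same 4 tests called 0 short ligands lower, of which 2 were lower at an unadjusted p under 0.05 by each. At that unadjusted limit the quasi-likelihood test put 21 of the 24 long genes lower. The share of all genes of each length at the unadjusted limit was not taken, so these counts have no background beside them.

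**Figure D3:**
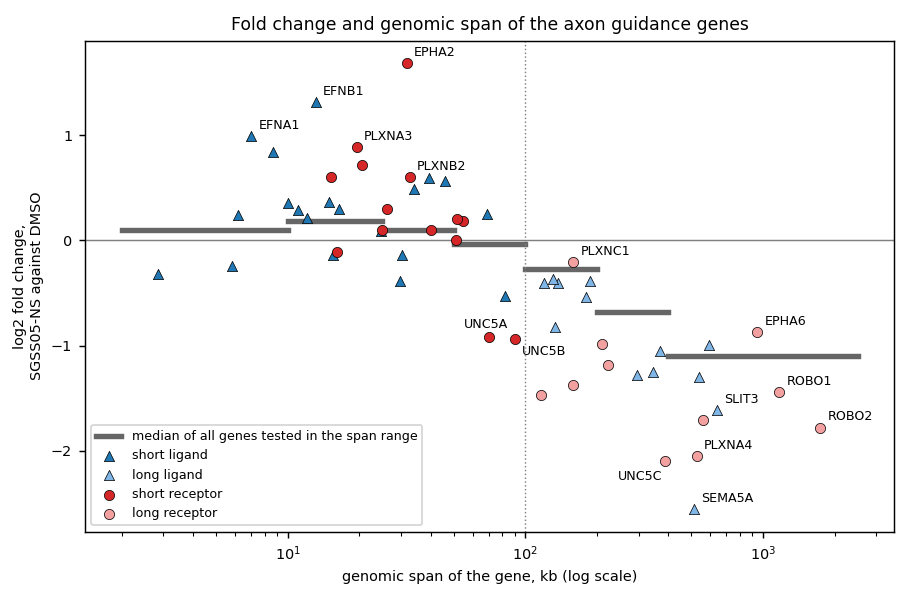
Log2 fold change of SGSS05-NS against DMSO (vertical axis) against genomic span in kb (horizontal axis, log scale) for the 58 tested guidance genes, with triangles for ligands, circles for receptors, a dotted line at 100 kb and grey bars for the median of all tested genes in 7 ranges of span. All 24 genes to the right of the dotted line lie below 0, and the grey bars run from 0.10 for genes under 10 kb to -1.10 for genes of 400 kb or more.

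Along the span the guidance genes went from higher to lower. The median log2 fold change of the guidance genes was 0.30 in 6 genes under 10 kb, 0.30 in 12 genes of 10 to 25 kb and 0.49 in 9 genes of 25 to 50 kb. It was 0.01 in 7 genes of 50 to 100 kb, -0.40 in 9 genes of 100 to 200 kb, -1.22 in 6 genes of 200 to 400 kb and -1.61 in 9 genes of 400 kb or more. In the last range 8 of the 9 genes fell, all but EPHA6, whose treated libraries were both lower and which the likelihood ratio test called lower, against 54.2% of all 369 tested genes of that length, and 4 of 6 fell from 200 to 400 kb, against 42.6%. The medians of all genes in these last 2 ranges were -1.10 and -0.68. Span and fold change had a Spearman correlation of -0.80 over the 58 guidance genes (Pearson -0.79 on log10 span), with -0.77 over 33 ligands and -0.83 over 25 receptors. Over 12567 protein_coding genes it was -0.42. These correlations are across genes, which share the same 4 libraries and are not independent replicates. The classes also differed in structure: exons filled a median of 22.3% of the span in short ligands and 21.3% in short receptors, and 3.04% and 3.11% in long ligands and long receptors.

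Levels were also summed over each class. Long ligands went from 718 ± 42.7 to 258 ± 11.4 CPM and long receptors from 1002 ± 47.2 to 342 ± 6.47 CPM. Short ligands went from 239 ± 4.12 to 298 ± 10.6 CPM, and short receptors from 820 ± 29.8 to 798 ± 127 CPM, the latter within the spread of the treated libraries. The treated libraries thus kept 36.0% of the long-ligand and 34.1% of the long-receptor sum, and abundant genes dominated these sums. SLIT3 (mean 457 to 149 CPM) and SEMA5A (111 to 18.9 CPM) made most of the long-ligand sum. UNC5C (330 to 76.9 CPM), PLXNA2 (308 to 135 CPM) and PLXNA4 (156 to 37.5 CPM) made most of the long-receptor sum. Among short receptors UNC5B fell (380 to 199 CPM), while PLXNB2, not called (144 to 219 CPM), and EPHA2 (21.9 to 70.6 CPM) were higher.

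The order of the levels per kb of exon, the scale on which genes of unequal length can be compared, changed with treatment. With DMSO the highest were UNC5B at 55.6 ± 3.18 CPM per kb, SLIT3 at 32.04 ± 0.707, UNC5C at 30.8 ± 2.76, PLXNA2 at 22.3 ± 1.71 and PLXNB2 at 19.8 ± 0.669. SLIT3 and UNC5C differed by less than the SD of UNC5C, whereas the gaps on either side of them were larger than the SDs. With SGSS05-NS the highest were PLXNB2 at 30.1 ± 7.72 CPM per kb, UNC5B at 29.0 ± 3.73, EPHA2 at 17.0 ± 1.36, PLXNA1 at 13.2 ± 2.47 and SEMA4C at 11.1 ± 0.481. PLXNB2 and UNC5B did not differ beyond their spread there. EPHA2 moved from rank 18 to rank 3 and EFNA1 from 17 to 6, while SLIT3 moved from rank 2 to 7, UNC5C from 3 to 12, PLXNA4 from 7 to 26 and SEMA5A from 9 to 32. Neighbours at ranks 16 to 19 with DMSO and at ranks 5 to 8 with SGSS05-NS did not differ beyond their SDs.

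**Figure D4:**
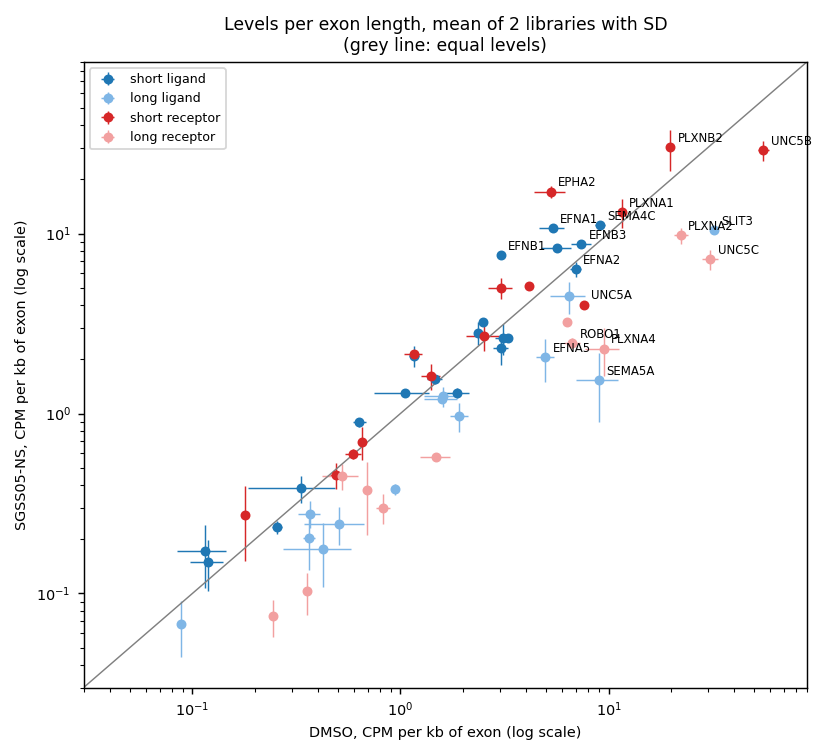
Level per exon length in CPM per kb with DMSO (horizontal axis, log scale) and with SGSS05-NS (vertical axis, log scale) for the tested guidance genes, as means of 2 libraries with bars for the SD, coloured by class, with a grey line of equal levels. EPHA2 (5.29 to 17.0 CPM per kb) lies above the line, and SEMA5A (9.05 to 1.54), UNC5C (30.8 to 7.20) and PLXNA4 (9.51 to 2.29) lie below it.

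Other genes of the pathway, from a list of 72 coreceptors, cytoplasmic effectors and further cues, were tested in the same fit. Of 68 tested, 4 rose and 16 fell (5.88% and 23.5%, against 6.37% and 8.14% of all genes tested), and the median log2 fold change was -0.29. Among those that rose were DRAXIN, a secreted repellent (4.62 and 5.60 against 25.7 and 21.2 CPM, log2 fold change 2.20), RGMA, a membrane-linked repellent that binds neogenin (1.81), and LRRC4, a synaptic partner of netrin-G proteins (1.27). The 4 with the smallest p-values among those that fell were TIAM1, an exchange factor for Rac (61.9 and 69.5 against 20.7 and 25.6 CPM, log2 fold change -1.50), KALRN, another exchange factor (-1.27), DOCK1, which activates Rac (-1.15), and PTK2, the focal adhesion kinase (-1.03). Genes of the list under 100 kb gave 4 higher (14.8%) and 0 lower of 27 by the quasi-likelihood test, with a median of 0.02, against 7.49% higher, 3.91% lower and a median of 0.09 over all genes of that length. Genes of 100 kb or more gave 0 higher and 16 lower (39.0%) of 41, with a median of -0.52, against 1.48% higher, 27.8% lower and a median of -0.42. At an unadjusted p under 0.05 that test put 4 of the shorter genes lower and 1 of the longer genes higher, without a share of all genes at that limit. The likelihood ratio test called 1 shorter gene lower and 0 longer genes higher, and DESeq2 and limma voom called 0 in either case.

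Fragments on the strand opposite to the genes were examined separately, since the deposited tables count each strand. In that column 9 guidance genes had enough counts, of which 1 was higher and 1 lower by edgeR's quasi-likelihood test, against 5.53% and 1.75% of the 7200 genes tested there. EPHA1, at 0 on its own strand in every library, had 55 and 69 fragments with DMSO and 222 and 247 with SGSS05-NS on the other. Its exons share 82 bases with those of ZYX, a gene of cell adhesion sites on the opposite strand, which had 359 and 357 fragments with DMSO and 1034 and 1076 with SGSS05-NS on its own strand. UNC5C had 58 and 93 fragments with DMSO and 21 and 23 with SGSS05-NS on the opposite strand (log2 fold change -1.70, SE 0.31, edgeR adjusted p = 0.00061), beside 19461 on its own strand over the 4 libraries. No guidance gene was called lower there without DMSO replicate 2 or by limma voom. It shares 78 exonic bases with UNC5C-AS1, which lies on the opposite strand. Counted without regard to strand, EPHA1 had 3, 4, 20 and 39 fragments and was called higher, whereas it had 0 in the strand-specific counts used here. These are fewer than its fragments on the opposite strand alone, and in that count fragments in exons of both EPHA1 and ZYX are assigned to neither.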

How the data were processed

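RNA of SY5Y cells was sequenced in 2 DMSO and 2 SGSS05-NS libraries, grouped by their sample labels. Per the study's methods these are 2 independent biological replicates. Per the submitters' processing notes and the methods, the authors used Trimmomatic 0.30 for trimming and STAR 2.4.2a for alignment to hg19 with GENCODE release 19, and the deposited values are raw counts per gene, unstranded and for each strand. Between 4.64% and 5.05% of the stranded fragments lay on the forward strand, so the reverse-strand column was used. The 4 summary lines of each file, 37.3% to 38.8% of all fragments, were left out.

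Genes with low counts were removed by filterByExpr, libraries were scaled by TMM, and SGSS05-NS was compared with DMSO, as the single term of the model, by the quasi-likelihood test of edgeR 4.0.16 (R 4.3.3). P-values were adjusted by Benjamini-Hochberg across the 16468 genes tested, and those under 0.001 were called. The standard error was the log2 fold change divided by the square root of F. Levels are TMM-scaled CPM, per kb of merged exons where genes are compared. Gene names, the protein_coding type, positions, spans and exon lengths came from GENCODE release 44 on GRCh37, in which 55538 identifiers had a symbol. Replicates differed by more than counting noise, with chi-square values of 8.76 (DMSO) and 11.8 (SGSS05-NS) per degree of freedom. Scripts were tested on simulated counts.

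The genes, the signalling list, the marker lists and the tests were chosen with earlier results of these data known. UNC5CL, UNC50 and the readthrough gene EFNA4-EFNA3 were left out. Values per library were given for the 3 called higher and the 3 called lower with the smallest p-values in each class of role and span, and for the 2 genes per class with the highest level per kb of exon. They were also given for the other called genes, and for ROBO3 and DCC, named after their values were seen. All tested genes were named with their log2 fold change, untested ones with their highest count, and of the signalling list the 4 called in each direction with the smallest p-values, of which the result of 1 gene is not reported here.

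As alternatives, DESeq2 1.42.0, voom of limma 3.58.1 and the likelihood ratio test of edgeR were run, with other scalings and filters, the replicate number as a block, unstranded counts, other thresholds, span boundaries of 50 and 200 kb, the longest transcript's span, and each library left out in turn.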

Additional observations from a re-analysis of the deposited data

Results flagged for a closer look

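EPHA1 stood out in the counts of the strand opposite to the genes, which the comparison of the ligands and receptors did not use. It had 55 and 69 fragments there with DMSO and 222 and 247 with SGSS05-NS, a log2 fold change of 2.00 (SE 0.17, edgeR quasi-likelihood adjusted p = 7.1e-07), with both treated libraries above both controls, and 0 fragments on its own strand. ZYX, which shares 82 exonic bases with it on that opposite strand, had a log2 fold change of 1.64 (SE 0.11, edgeR adjusted p = 5.4e-07). Counted without regard to strand, where fragments in exons of both genes are assigned to neither, EPHA1 had only 3 and 4 fragments with DMSO and 20 and 39 with SGSS05-NS. Its opposite-strand count can therefore hold fragments of ZYX, and the part of ZYX in the EPHA1 value was not tested.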

How the results depend on the processing

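No log2 fold change of the 20 called genes changed sign under any alternative. SEMA6D lost its call with scaling by library size only (adjusted p = 0.0013), and UNC5D with DESeq2 (adjusted p = 0.0013) and without SGSS05-NS replicate 1 (adjusted p = 0.0019). The genes called lower numbered 12 to 23 over all alternatives, against 16. The 4 genes called higher became 8 with the likelihood ratio test, 7 with no filter on low counts, 11 and 8 at thresholds of 0.05 and 0.01, and 2 with a change of at least 1 on the log2 scale, and 4 to 6 with single libraries left out. The likelihood ratio test added EFNA3, EFNB2, EPHB3 and PLXNB2 to them and EPHA6, NTNG1 and SLIT2 to those called lower, and over all genes it called 2023 higher and 2267 lower, against 1049 and 1341. Without the filter, 2034 and 2570 of 30755 genes were called. With scaling by library size only, 929 and 998 were called.

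With the replicate number as a block, 7 guidance genes were called higher (EFNB2, EPHB3 and PLXNB2 added) and 20 lower (EPHA6, NTNG1, SEMA3C and SLIT2 added), and 1759 genes higher and 2007 lower overall. The deviations of same-numbered libraries correlated at 0.061, so the numbers were not taken to pair the samples.

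The signalling genes called lower, 16, became 27, 29, 33, 29 and 7 with the likelihood ratio test, no filter, thresholds of 0.05 and 0.01, and at least 1 on the log2 scale, and those called higher, 4, became 10 and 8 at 0.05 and 0.01. With single libraries left out they were 17 to 22 and 4 to 5. The Spearman correlation of span and fold change was -0.69 with no filter and -0.80 to -0.78 with single libraries left out. The median of the short receptors was 0.60 at a boundary of 50 kb and 0.039 to 0.36 with single libraries left out. That of the long receptors was -1.08 at 50 kb, -1.57 at 200 kb and -1.54 to -1.37 with libraries left out, and that of the long ligands -1.28 at 200 kb and -1.19 to -0.77. On the opposite strand, the gene called lower became 2 with no filter, the block, DESeq2, the likelihood ratio test and scaling by library size only, 0 with limma voom, and 0 to 2 with libraries left out, and the gene called higher became 2 with no filter and 1 to 2 with libraries left out. The cause was not tested for any of these. A condition with 1 library left is assumed to vary like the other, and 2 libraries per condition limit the precision of all values.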
